A study of Homo sapiens with 6 samples.

Results

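HOX genes encode homeodomain transcription factors that assign position along the body axis. In humans they lie in 4 clusters, HOXA on chromosome 7, HOXB on chromosome 17, HOXC on chromosome 12 and HOXD on chromosome 2, and members with the same number in different clusters are paralogues. Within a cluster, low-numbered genes are known for activity in anterior parts of the embryo and high-numbered genes for activity in posterior parts. Polycomb complexes keep unused clusters silent, MLL-type methyltransferases sustain active ones, and HOX proteins bind DNA together with PBX and MEIS partners. The HOX genes described here are all rows of the count table whose gene symbol is HOX, a cluster letter from A to D and a number, which gave 33 of 32078 named genes. RefSeq names 39 such human genes, and the other 6 were not analysed here.

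The libraries were made from poly(A) RNA labelled as PANC-1, an established human line of pancreatic ductal carcinoma. The EV-labelled group had 3 libraries of cells labelled as treated with vesicles from CAFs, the fibroblasts of tumour stroma, and the control-labelled group had 3 libraries labelled as untreated. The shared protocol text describes vesicle pretreatment for every library, so the groups rest on titles and treatment labels, and neither vesicle dose nor exposure time is stated in them. Nothing in the labels says that replicates were separate cultures, so each p-value reflects only library-to-library spread, possibly technical. In bulk RNA, fewer cells with a transcript and less of it per cell cannot be told apart.

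Totals ran from 21669757 to 27535620 counts per library. CPM, the count scaled to library size with TMM factors (the trimmed mean of M-values), is the level used throughout, and a count of 0 allows 3 counts, or 0.110 to 0.138 CPM depending on the library, for counting error only. Of the ductal and carcinoma epithelium markers, KRT8 and KRT18 averaged 3382 and 1375 CPM in EV-labelled and 3063 and 1271 CPM in control-labelled libraries, while CDH1 and EPCAM had 0 counts in all 6.

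The proteins share a homeodomain with a recognition helix that reads DNA. To show how alike the members are in this stretch, 30 coding bases from that helix are printed for 4 of the HOX genes that differed between the groups. They were read from GENCODE v29 transcripts (GRCh38), in transcript sense from 5′ to 3′, and capitals mark bases that differ from HOXB9.
HOXB9: aaaatctggtttcagaaccggcggatgaaa
HOXB2: aaaGtctggtttcagaaccggcgCatgaaG
HOXB6: aaGatAtggttCcagaaccgAcgCatgaaG
HOXA11: aaaatctggtttcagaacAggAgAatgaaG
HOXB2 shared 27 of the 30 bases with HOXB9, HOXA11 shared 26 and HOXB6 shared 24. Outside such short runs the transcripts diverged: among 120 pairs of tested HOX genes, the longest exact run common to both transcripts had a median of 15.5 bases. It reached the read length of 150 bases in 1 pair, HOXB3 and HOXB6, which have a run of 434 bases in common. The longest run that HOXB9 shared with any tested member was 24 bases, with HOXA11.

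Among the 33 HOX genes analysed, the expressed repertoire was a HOXB one in both groups. With detection set at 10 or more counts in each of the 6 libraries, 15 of 33 genes were detected. These were all 9 HOXB genes analysed, 4 of 8 HOXA genes (HOXA3, HOXA11 and HOXA13 among them), 2 of 9 HOXC genes (HOXC6 and HOXC8) and 0 of 7 HOXD genes. Of the others, 11 had 0 counts in all libraries, namely HOXA5, HOXA6, HOXC9, HOXC12, HOXC13, HOXD1, HOXD3, HOXD4, HOXD8, HOXD10 and HOXD11. The remaining 7 were below the limit in at least 1 library. HOXA2 missed it through 5 counts in EV replicate 1. HOXC4, HOXC5 and HOXD12 stayed between 2 and 12 counts, and HOXA7, HOXC10 and HOXC11 had no more than 3.

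**Figure D1:**
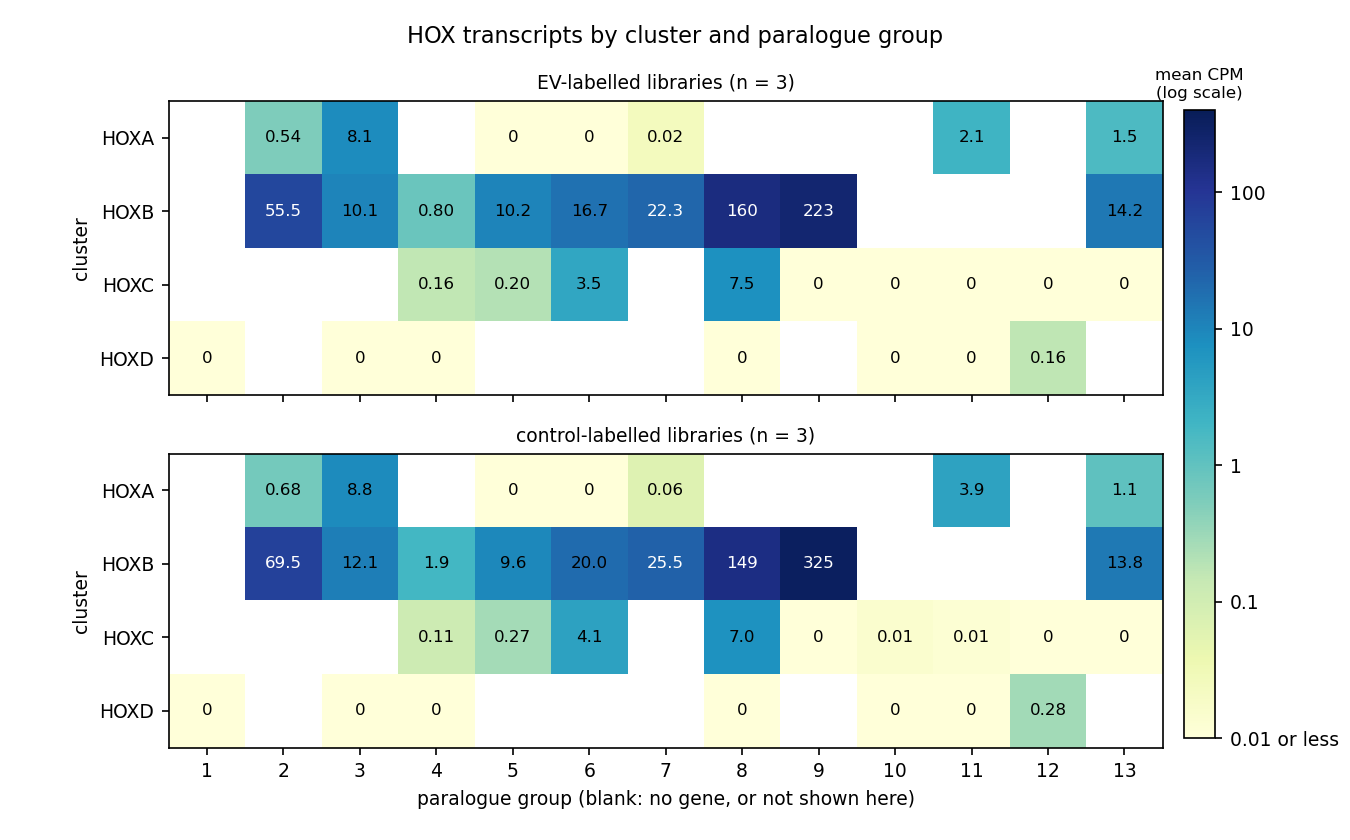
Mean CPM of HOX genes by cluster (rows) and paralogue group (columns), in the 3 EV-labelled libraries (top) and the 3 control-labelled libraries (bottom), on a logarithmic colour scale with the mean printed in each cell. Both panels show a filled HOXB row, with HOXB9 at 223 CPM in EV-labelled and 325 CPM in control-labelled libraries, and a HOXD row at 0 except for HOXD12.

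HOXB genes held 95.6%, 95.6% and 95.0% of the analysed HOX counts in the EV-labelled libraries and 95.8%, 95.8% and 95.9% in the control-labelled libraries. After division by exon length they held 95.7% to 96.3% in EV-labelled and 96.3% to 96.4% in control-labelled libraries. HOXD12, the gene with the only HOXD counts, had 4, 3 and 5 counts in EV-labelled libraries and 11, 4 and 6 in control-labelled libraries. Every paralogue group from 2 to 9 had at least 1 detected member, as did groups 11 and 13. Groups 10 and 12 had none among the members analysed.

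Levels of different genes were compared per kb of exon, with GENCODE v29 exon lengths, over the 6 libraries. HOXB9, a posterior member of its cluster, had the highest level on this scale, at 81.8 to 132 CPM per kb, above HOXB8 at 70.2 to 80.7. HOXB2 followed at 22.5 to 31.3, HOXB7 at 13.8 to 17.6 and HOXB6 at 6.13 to 7.85, and the ranges of these 5 genes did not overlap. The order of the top pair depended on the length used: per kb of the longest transcript, HOXB9 averaged 86.4 and HOXB8 87.9 CPM per kb in EV-labelled libraries, against 126 and 81.8 CPM per kb in control-labelled libraries. Next came HOXB5 (4.56 to 5.16), HOXB13 (3.82 to 4.62) and HOXC8 (3.42 to 4.62), whose ranges overlapped. HOXA3 (1.54 to 2.47), HOXB3 (1.24 to 1.63), HOXA11 (0.819 to 1.93) and HOXC6 (0.749 to 1.38) formed another overlapping run. HOXB4, at 0.171 to 0.546, was the lowest of the HOXB genes, although genes on both sides of it in the cluster were higher per kb. Its range overlapped those of HOXA13 (0.173 to 0.406) and HOXA2 (0.0752 to 0.354).

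**Figure D2:**
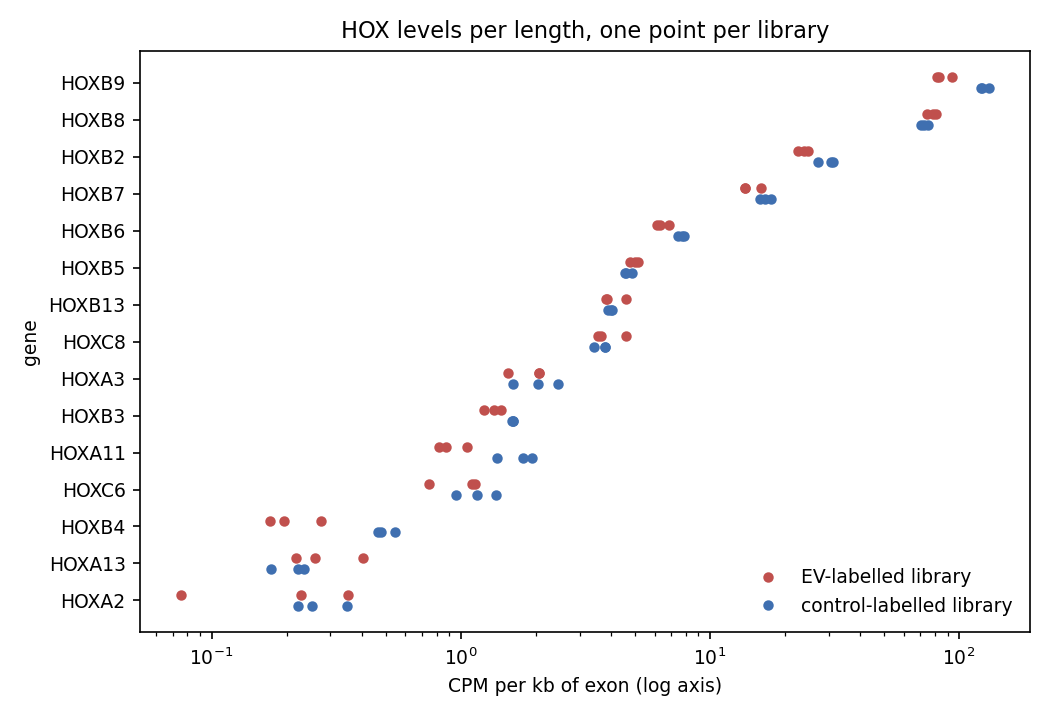
Level per kb of exon (CPM per kb, log axis) of 15 of the 16 HOX genes tested, 1 point per library, EV-labelled above control-labelled within each gene. HOXB9 lies furthest right in all 6 libraries, and the control-labelled points of HOXB9, HOXB2, HOXB6, HOXB3, HOXA11 and HOXB4 lie to the right of their EV-labelled points.

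The EV-labelled libraries had less HOXB9, HOXB4, HOXA11, HOXB2, HOXB6 and HOXB3 transcript than the control-labelled libraries, and no HOX gene was called higher. Of 33 HOX genes, 16 passed the count filter and could be tested with edgeR's quasi-likelihood test across all genes, with Benjamini-Hochberg adjustment. Of these 16, 6 (37.5%) were lower at an adjusted p under 0.05 and 0 were higher. Without adjustment, 0 were higher at a p under 0.05 as well, and DESeq2 and limma-voom also called 0 higher. Of all 14670 genes tested, 40.9% were called, 20.7% as lower and 20.2% as higher. The share of HOX genes called in either direction was thus close to that of all genes, and the calls went in 1 direction. The median log2 fold change of the 16 was -0.22, beside -0.01 for all genes tested. The groups did not overlap for the same 6 genes, a separation seen for 50.6% of all tested genes.

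HOXB9 was at 243, 215 and 211 CPM in the EV-labelled libraries, against 319, 342 and 315 CPM in the control-labelled libraries. Every EV-labelled library was below every control-labelled one. The log2 fold change was -0.54 ± 0.06 (SE), 1.46-fold lower in EV-labelled libraries (adjusted p = 1.79e-06), and it stayed between -0.60 and -0.50 in the 16 alternative settings. HOXB9 exons overlap no other gene in GENCODE v29.

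HOXB8, its neighbour in the cluster, was at 162, 165 and 153 CPM in EV-labelled libraries, against 155, 149 and 144 CPM in control-labelled libraries. The groups overlapped, and the difference did not pass (log2 fold change 0.10 ± 0.06, adjusted p = 0.163). HOXB9 thus held 42.8%, 40.6% and 41.0% of the analysed HOX counts in EV-labelled libraries, against 49.3%, 50.6% and 49.2% in control-labelled libraries. HOXB8 held 28.5%, 31.2% and 29.8% in EV-labelled libraries, against 23.9%, 22.0% and 22.5% in control-labelled libraries. The ratio of HOXB9 to HOXB8 counts within a library, which no library scaling can change, averaged 1.39 in EV-labelled and 2.18 in control-labelled libraries (n = 3 each), and the lowest control-labelled ratio, 2.06, was above every EV-labelled one. The shares and the ratio were chosen after the values were seen and are descriptions.

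Summed over all HOX genes, the level was 538 ± 26.9 CPM in EV-labelled and 654 ± 19.0 CPM in control-labelled libraries (SD, n = 3 each). HOXB9 made up 87.9% of that difference of means, while HOXB8, which did not pass, differed by 11.1 CPM in the opposite direction. Without HOXB9, the HOXB genes summed to 290 ± 10.8 CPM in EV-labelled and 302 ± 3.37 CPM in control-labelled libraries. The ranges overlapped only through EV replicate 1, at 299.8 CPM, against a lowest control-labelled value of 299.1 CPM. That sum still holds HOXB8, beside HOXB4, HOXB2, HOXB6 and HOXB3, which were lower in EV-labelled libraries.

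**Figure D3:**
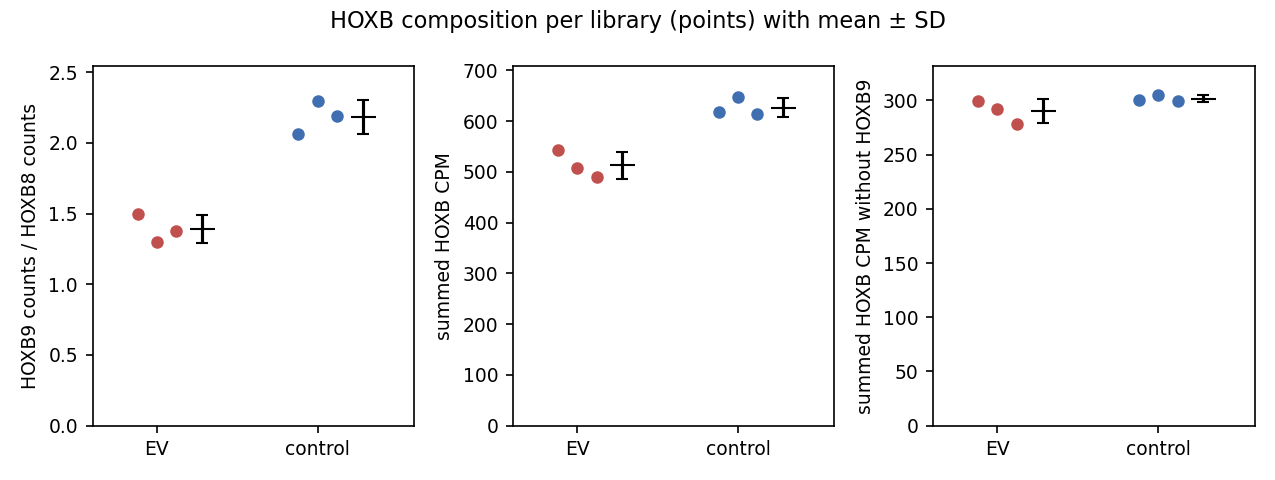
HOXB9 to HOXB8 count ratio (left), summed HOXB CPM (middle) and summed HOXB CPM without HOXB9 (right) per library, EV-labelled left of control-labelled, with mean ± SD (n = 3). The ratio averages 1.39 in EV-labelled and 2.18 in control-labelled libraries without overlap. The sums without HOXB9 overlap only through EV replicate 1.

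HOXB4, known for promoting expansion of blood stem cells, had the lowest fold change of the HOX genes. It had 28, 16 and 16 counts in EV-labelled libraries, against 41, 49 and 56 in control-labelled libraries, which is 1.04, 0.733 and 0.643 CPM against 1.76, 1.79 and 2.05 CPM. The groups did not overlap, and the log2 fold change was -1.20 ± 0.25, 2.30-fold lower in EV-labelled libraries (adjusted p = 0.000861). With 16 counts in 2 of the libraries, the size of the change was less well fixed than that of HOXB9, from -1.43 to -1.05 over the alternatives. In GENCODE v29, 17.1% of HOXB4 exon bases overlap same-strand genes, HOXB3 among them.

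HOXA11, a posterior HOXA gene of limb, kidney and uterus development, was at 2.44, 2.02 and 1.89 CPM in EV-labelled libraries, against 3.21, 4.46 and 4.11 CPM in control-labelled libraries. All EV-labelled values were below all control-labelled values (log2 fold change -0.89 ± 0.18, adjusted p = 0.000577). Its antisense transcript HOXA11-AS was lower too, with 8, 5 and 9 counts in EV-labelled and 15, 18 and 20 counts in control-labelled libraries (log2 fold change -1.18 ± 0.37, adjusted p = 0.0154). That call was lost without EV replicate 2, without control replicate 3 and with DESeq2, with an adjusted p of at most 0.0708. In GENCODE v29, the antisense gene's exons overlap 717 of the 2307 exon bases of HOXA11. The library kit keeps the strand, but no source used here says whether the counting used it, so in that overlap the sense and antisense reads cannot be told apart.

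Because HOXA11 and HOXA11-AS moved together, the sequence before the start of HOXA11 is shown. It is the 250 bases upstream of the RefSeq gene start on the minus strand of chromosome 7, chr7:27185233-27185482 in GRCh38.p14. RefSeq places the start of HOXA11-AS 176 bases away on the plus strand, inside this window. From these starts the RefSeq genes run away from each other, unlike the GENCODE v29 genes, whose exons overlap.
HOXA11: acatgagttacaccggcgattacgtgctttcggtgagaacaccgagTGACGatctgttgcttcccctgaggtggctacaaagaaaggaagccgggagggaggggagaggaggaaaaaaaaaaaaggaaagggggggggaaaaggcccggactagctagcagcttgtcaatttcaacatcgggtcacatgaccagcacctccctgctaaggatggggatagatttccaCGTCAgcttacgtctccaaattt
Capitals mark the 2 matches to TGACG, the half-site of the cAMP response element, on either strand. Of 35116 RefSeq windows of the same length, 21.2% hold that motif. The homeodomain core TAATTA, the PBX and HOX composite TGATTNAT, the TATA box TATAAA, the CCAAT box CCAAT and the E-box CACGTG, each searched on both strands, had 0 matches, and 4.35%, 2.48%, 10.7%, 32.0% and 6.34% of all windows hold them. RefSeq promoter sequences matched 15 of the 33 genes by symbol, with no HOXB gene analysed here among them.

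HOXB2, an anterior member involved in hindbrain patterning, was at 58.1, 56.0 and 52.6 CPM in EV-labelled libraries, against 63.6, 73.1 and 71.7 CPM in control-labelled libraries. The groups did not overlap (log2 fold change -0.32 ± 0.07, adjusted p = 0.000874). HOXB6 was at 17.9, 16.4 and 16.0 CPM in EV-labelled libraries, against 20.4, 19.4 and 20.1 CPM in control-labelled libraries (-0.25 ± 0.09, adjusted p = 0.0221). HOXB3 was at 10.2, 9.21 and 10.8 CPM in EV-labelled libraries, against 12.1, 12.0 and 12.1 CPM in control-labelled libraries (-0.26 ± 0.10, adjusted p = 0.0459). Both separations were narrow. HOXB3 lost its call in 10 of 16 alternatives, with adjusted p = 0.0777 to 0.184 on leaving out any 1 library other than EV replicate 3. HOXB6 lost it in 5 of 16, among them without EV replicate 2 (adjusted p = 0.0751), EV replicate 3 (adjusted p = 0.103) or control replicate 1 (adjusted p = 0.0573). The annotated exons of HOXB3 and HOXB6 overlap on the same strand over 433 bases, so reads there could be counted to either gene. On the opposite strand, HOXB-AS3 exons overlap 425 of the 2604 exon bases of HOXB6. With the strand setting of the counting unknown, antisense reads there could be counted to HOXB6.

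**Figure D4:**
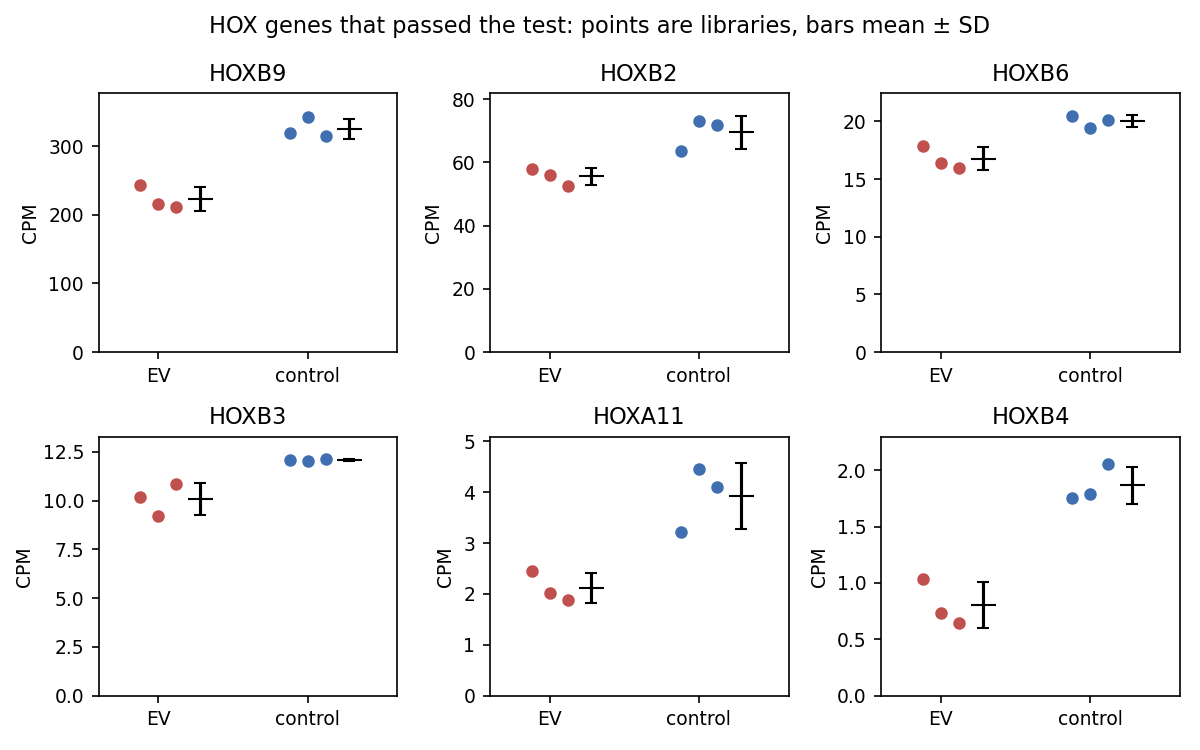
CPM per library of the 6 HOX genes that passed the test, EV-labelled left of control-labelled, with mean ± SD (n = 3) and axes from 0. The groups do not overlap in any panel. The gap is wide for HOXB9 (211 to 243 CPM in EV-labelled against 315 to 342 CPM in control-labelled libraries) and narrow for HOXB3 (9.21 to 10.8 CPM in EV-labelled against 12.0 to 12.1 CPM in control-labelled libraries).

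The other 10 tested members did not pass. HOXB7 was at 24.6, 21.2 and 21.1 CPM in EV-labelled libraries and 24.2, 26.8 and 25.6 CPM in control-labelled libraries (log2 fold change -0.20 ± 0.08, adjusted p = 0.0706), and it passed without EV replicate 1 (adjusted p = 0.0323). HOXB5 averaged 10.2 ± 0.383 CPM in EV-labelled and 9.57 ± 0.365 CPM in control-labelled libraries (0.09 ± 0.10). HOXB13, known as a factor of prostate and distal gut, averaged 14.2 ± 1.55 CPM in EV-labelled and 13.8 ± 0.311 CPM in control-labelled libraries (0.04 ± 0.10).

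HOXA3, which acts in pharyngeal organ development, averaged 8.15 ± 1.30 CPM in EV-labelled and 8.81 ± 1.81 CPM in control-labelled libraries (-0.10 ± 0.15). HOXA13, the most posterior HOXA gene, was at 1.11, 2.06 and 1.33 CPM in EV-labelled libraries and 1.20, 1.13 and 0.880 CPM in control-labelled libraries (0.47 ± 0.27, adjusted p = 0.183), and its groups overlapped. HOXA2, a hindbrain gene, averaged 0.539 ± 0.344 CPM in EV-labelled and 0.676 ± 0.161 CPM in control-labelled libraries (-0.36 ± 0.42). HOXC6 averaged 3.54 ± 0.767 CPM in EV-labelled and 4.13 ± 0.758 CPM in control-labelled libraries (-0.23 ± 0.18). HOXC8 averaged 7.46 ± 1.10 CPM in EV-labelled and 6.95 ± 0.418 CPM in control-labelled libraries (0.10 ± 0.13).

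**Figure D5:**
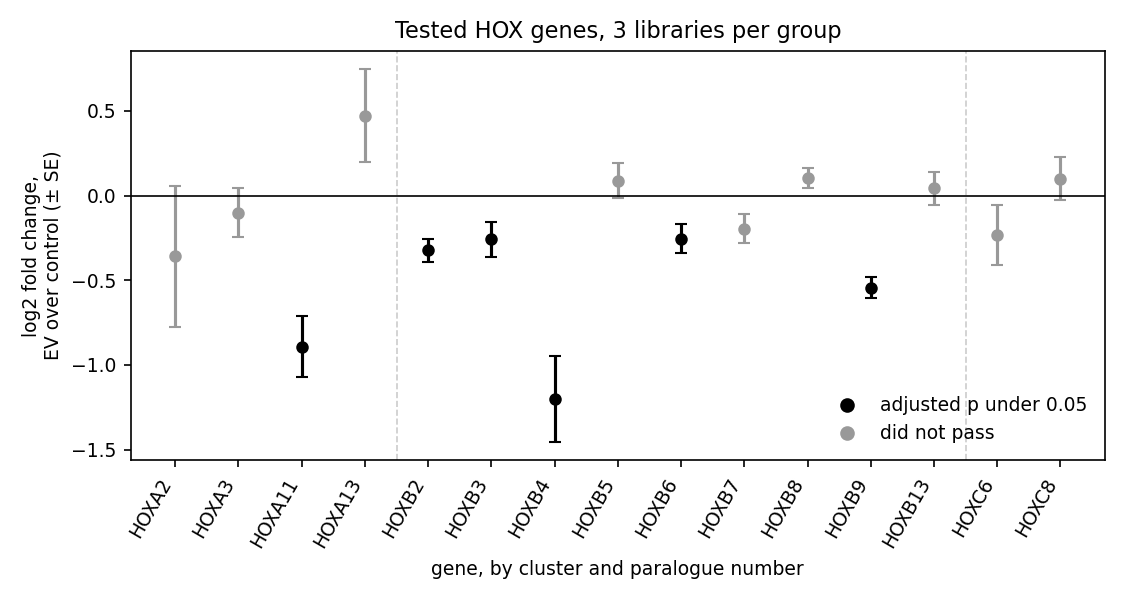
Log2 fold change, EV-labelled over control-labelled, with SE, of 15 of the 16 tested HOX genes in order of cluster and paralogue number (3 libraries per group). Black points passed at an adjusted p under 0.05. They lie between -1.20 (HOXB4) and -0.25 (HOXB6), and within HOXB they lie among genes near 0 such as HOXB5 (0.09) and HOXB8 (0.10).

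Transcripts that lie between the HOX genes were mostly scarce. Of 25 listed antisense, intergenic and neighbouring transcripts of the clusters, 20 had a row and 8 of these had 0 counts throughout. In all, 4 could be tested, of which only HOXA11-AS passed. This is 25% called, beside 40.9% of all tested genes. HOTAIR, the HOXC-encoded RNA known for its link to Polycomb, had 0 counts in all libraries. HOXB-AS3 averaged 5.00 ± 0.446 CPM in EV-labelled and 5.51 ± 0.785 CPM in control-labelled libraries and did not pass (log2 fold change -0.13 ± 0.14). HOXB-AS1 (-0.08 ± 0.28) and HOXA-AS2 (0.03 ± 0.16) did not pass either. PRAC1, which lies next to HOXB13, had 0 counts in EV-labelled libraries and 4, 0 and 0 counts in control-labelled libraries.

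The nearest protein-coding genes with a row, 3 on each side of each cluster, were read from GENCODE v29 order after the HOX values were seen. Of these 24 neighbours, 21 could be tested, and 6 were higher, 7 lower and 8 not called, where 40.9% of all tested genes were called in either direction. Next to the HOXD genes, at 0 apart from HOXD12, the nearest neighbour on the lower-coordinate side, EVX2, also averaged 0 CPM in both groups. LNPK, the next gene beyond EVX2, and MTX2, the nearest on the other side, were expressed. LNPK, a protein of endoplasmic reticulum junctions, averaged 32.5 CPM in EV-labelled and 29.4 CPM in control-labelled libraries, and MTX2, a mitochondrial import protein, averaged 35.7 CPM in EV-labelled and 36.8 CPM in control-labelled libraries. Neither passed (log2 fold changes 0.14 ± 0.07 and -0.04 ± 0.07).

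Transcripts of HOX partner proteins differed in both directions. Of 11 TALE homeodomain cofactors, 8 were tested, and 3 were higher and 2 lower, which is 62.5% called, beside 40.9% of all tested genes. PBX2, which binds DNA beside HOX proteins, was at 58.6 ± 5.11 CPM in EV-labelled and 81.6 ± 5.51 CPM in control-labelled libraries (log2 fold change -0.48 ± 0.07, adjusted p = 3.46e-05). TGIF1, a TALE repressor on the list that is not of the PBX or MEIS partners, was also lower (-0.45 ± 0.07). PKNOX1 (0.25 ± 0.07) and MEIS3 (0.42 ± 0.14), of the PREP and MEIS families, were higher. The groups overlapped for MEIS3, which lost its call without EV replicate 1 or 3 and without control replicate 1 or 3, with an adjusted p of at most 0.0866. MEIS1, named after its values were seen, had 0 counts in all libraries.

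Transcripts of HOX chromatin regulators also differed in both directions. All 30 listed Polycomb genes were tested, and 8 were higher and 9 lower (median log2 fold change 0.05). These shares, 26.7% higher and 30.0% lower, stand beside 20.2% and 20.7% of all tested genes. EZH1, a catalytic subunit of Polycomb complex PRC2, fell to 32.1 ± 0.510 CPM in EV-labelled libraries, against 53.4 ± 1.64 CPM in control-labelled libraries (-0.73 ± 0.07, adjusted p = 6.74e-08). Its paralogue EZH2 averaged 71.8 ± 3.79 CPM in EV-labelled and 71.2 ± 2.05 CPM in control-labelled libraries and did not pass (0.01 ± 0.06). EED, another PRC2 subunit, was higher (0.41 ± 0.08), as was CBX2, a PRC1 subunit (0.57 ± 0.08), whereas the PRC1 subunit PHC2 was lower (-0.49 ± 0.06).

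The trithorax and MLL list of 21 genes also holds genes outside those families, GMNN among them. Of the 21, 19 were tested. On this list 5 were higher (26.3%, beside 20.2% of all tested genes) and 6 lower (31.6%, beside 20.7%). The list's median log2 fold change was -0.08. KDM6B, a demethylase that removes the Polycomb mark on histone H3, was at 16.7 ± 0.855 CPM in EV-labelled and 47.8 ± 2.25 CPM in control-labelled libraries (-1.52 ± 0.08, adjusted p = 3.13e-11). Its paralogue KDM6A, named after its values were seen, had 1 count in 1 EV-labelled library and 0 in the others. DOT1L, the histone H3 lysine methyltransferase tied to MLL fusions (-0.59 ± 0.06), and AFF4, of the super elongation complex (-0.45 ± 0.06), were lower. GMNN, which encodes the replication licensing inhibitor geminin, was higher (0.76 ± 0.07).

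Retinoic acid is a classical inducer of HOX genes. Of 18 listed genes of its axis, 10 were tested, and 3 were higher and 2 lower (median log2 fold change 0.04), beside 20.2% and 20.7% of all tested genes. The receptor gene RXRB fell (-0.66 ± 0.07), as did STRA6, a retinol transporter, at 0.266 ± 0.0759 CPM in EV-labelled and 1.26 ± 0.234 CPM in control-labelled libraries (-2.20 ± 0.34). RDH10, which oxidises retinol (0.88 ± 0.14), and the receptor gene RARG (0.38 ± 0.07) rose. CDX2, a caudal-type factor upstream of posterior HOX genes, averaged 3.85 ± 0.0757 CPM in EV-labelled and 4.02 ± 0.404 CPM in control-labelled libraries and did not pass (-0.06 ± 0.15). PDX1 had too few counts to test, at 0.251 CPM in EV-labelled and 0.216 CPM in control-labelled libraries.

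Fibroblasts, the named source of the vesicles, are known to carry HOX transcripts. Of 16 listed fibroblast markers, 15 had a row and 6 were tested, of which COL1A2 (log2 fold change 0.71 ± 0.07) and COL5A1 (1.62 ± 0.40) were higher and COL6A3 (-0.61 ± 0.06) and ACTA2 (-0.91 ± 0.17) lower. This is 66.7% called, beside 40.9% of all tested genes. Summed over the list, the level was 389 to 432 CPM in EV-labelled and 398 to 435 CPM in control-labelled libraries. DCN, LUM, POSTN, PRRX1, THY1 and TWIST1 had 0 counts in all 6. Of the 10 epithelial markers 5 were tested, and MUC1 (-1.35 ± 0.11), KRT19 (-0.48 ± 0.06) and SOX9 (-0.42 ± 0.06) were lower, where 20.7% of all tested genes were. The other tested markers, KRT8 (0.14 ± 0.06, adjusted p = 0.0687) and KRT18 (0.11 ± 0.06), did not pass and had positive fold changes.

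The authors' deposited table lists 20 of the HOX genes, 5 with a q under 0.05. The share of all its genes under that q is not given here, so the count is not read as high or low. Its fold changes run control-labelled over EV-labelled, so the authors' deposited table gives HOXB9 as 0.53 (q = 3.67e-12) and HOXB4 as 1.18 (q = 1.69e-05). HOXB4 is the only HOX gene that the authors' deposited table marks as changed, as Up on that control-labelled over EV-labelled scale. HOXB3 has q = 0.071 in the authors' deposited table. The table rests on the same 6 libraries and adds no independent evidence.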

How the data were processed

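The authors deposited raw counts per gene, whole numbers for 6 libraries. Per the submitters' processing notes, TopHat, RSEM and hg19 were used, without versions or roles, and no source used here states the annotation or strand setting. The authors also deposited their own comparison with mean log2 abundances, log2 fold changes, p-values and q-values. Rows carrying an assembly number and no gene name (0.0990% to 0.134% of counts) were left out.

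The main test was edgeR 4.0.16 under R 4.3.3 (filterByExpr, TMM, glmQLFit, glmQLFTest, Benjamini-Hochberg over all tested genes, called at an adjusted p under 0.05). The log2 fold change uses a prior count of 0.125, and each SE equals the absolute coefficient over the root of its F statistic. The procedure was tested on simulated data. All libraries differed by more than sampling noise. Exon lengths, overlaps and gene order came from GENCODE v29 (GRCh38) and promoter sequence from RefSeq (GRCh38.p14). The files give no coordinates.

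All HOX genes were counted, with values for the tested ones except what is not reported here, and up to 4 called genes with the lowest adjusted p were named per list. The members and lists were chosen with earlier results of these data known. EZH2, MEIS1, KDM6A, HOTAIR, PRAC1, KRT8, KRT18, other untested markers and the cluster neighbours were named outside that rule, after their values were seen. Alternatives were other scalings, other count filters, a block on replicate number, limma-voom 3.58.1, DESeq2 1.42.0, each library left out, a stricter threshold and keeping the unnamed rows.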

Additional observations from a re-analysis of the deposited data

How the results depend on the processing

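HOXB9, HOXB4, HOXA11 and HOXB2 kept their direction and call in all 16 alternatives. The number of HOX genes called lower was 4 to 6, and 0 were higher in each. Leaving out 1 library moved the call count over all genes to between 4756 and 5612, against 6001. It turned the sign of the log2 fold change of 5 uncalled genes. The range was -0.86 to 0.091 for HOXA2 and -0.046 to 0.092 for HOXB13 (both reversed without EV replicate 1), -0.24 to 0.050 for HOXA3 (without EV replicate 2 or control replicate 1), -0.023 to 0.18 for HOXC8 (without EV replicate 3) and -0.13 to 0.020 for CDX2 (without control replicate 2). Leaving out 1 library gave 1 to 3 higher TALE genes and 5 to 9 lower Polycomb genes. Under the same omissions, the trithorax and MLL list had 3 to 5 higher and 3 to 6 lower genes. They also gave 0 to 1 lower HOX antisense transcripts and 0 to 1 higher epithelial markers. With a filter of 1 CPM in 3 libraries, 0 HOX antisense transcripts and 1 retinoic acid gene were lower and 1 fibroblast marker was higher. That filter removed the low-count genes HOXA11-AS, STRA6 and COL5A1 before the test. DESeq2 called 0 HOX antisense transcripts lower. The epithelial list had 1 higher member with library totals alone, without a count filter, with DESeq2 and with limma-voom. The cause was not tested. Detection gave 19 HOX genes at 1 count in each library, 12 at 1 CPM and 10 at 100 counts.

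Titles in both groups carry the numbers 1 to 3, but deviations of same-numbered libraries correlated at -0.02, -0.01 and -0.01. Each library correlated more with another number, but deviations from a group mean force this where the same-numbered value is negative. All values, same-numbered or not, lay between -0.06 and 0.07. Values this small neither show nor exclude a pairing by number. With the replicate block, 5743 genes were called, among them 5 lower HOX genes. Per kb of the longest transcript instead of all exons, HOXA3 and HOXB3 exchanged places, as did HOXA13 and HOXA2, and in EV-labelled libraries HOXB8 stood above HOXB9. Depth limits HOXB4, with 16 to 56 counts a library, and HOXA11-AS, with 5 to 20. For the 11 HOX genes at 0, the limit in a single library is up to 0.138 CPM, and it is tighter over all libraries together.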
